A study of Mus musculus with 6 samples.

Results

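The genes described here are 36 enzymes, regulators and carriers of sterol and fatty acid synthesis. They were chosen by name from the 54532 rows of a gene count table, and each symbol matched 1 row. There were 18 sterol enzymes, 11 fatty acid enzymes, 6 regulators and the sterol transfer protein gene Stard4. RNA-seq was made from RAW264.7 cells, a mouse macrophage line labelled wild type, that were sorted by flow cytometry. The line grew in DMEM with 10% serum, either alone (3 libraries, replicates A, B and C) or for 48 h with TTJ cells (3 libraries, replicates A, B and C). TTJ cells lack Tsc2, an inhibitor of the growth kinase complex mTORC1, and are described as coming from an angiomyolipoma of a mouse model of tuberous sclerosis complex. That origin was not tested here. The study asks how these cells change macrophage polarization. Both lines are single established lines, and nothing in the labels says that replicates were separate cultures, so p-values speak only to the variation among these libraries, and that variation may be technical.

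Cholesterol is built from acetyl-CoA through mevalonate, isoprenoid diphosphates, squalene and lanosterol, and fatty acids from the same acetyl-CoA through malonyl-CoA. Both routes are switched on by the SREBP transcription factors, which SCAP carries from the endoplasmic reticulum to the Golgi for cleavage and which INSIG proteins hold back when sterols are plentiful. SREBP2 acts mainly on sterol genes and SREBP1 mainly on fatty acid genes. In macrophages these pathways supply membranes for phagocytosis and feed the oxysterols and unsaturated fatty acids that restrain inflammatory genes.

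Library totals ran from 14329487 to 17358280 counts. The mitochondrial share of counts was 1.55% to 1.75% alone and 1.34% to 1.41% in coculture. All 10 macrophage markers were measured, and their CPM (counts over each library's scaled total, per 1e+06) summed to 11809 to 11919 alone and 12474 to 12812 in coculture, a sum of which Lyz2 made up 6768 and 7266 CPM by the group means. Of these 10 markers 5 were called higher and 3 lower by the test described below, beside 21.7% and 15.2% of all genes tested. The log2 changes of the 10 ran from -0.30 to 1.17, with a median of 0.08. The 3 that fell were Tyrobp (-0.30), Spi1 (-0.23) and Cd68 (-0.10), the first 2 as large as the falls of several synthesis genes. Of 11 renal epithelial markers 7 could be tested, all through the cocultured libraries, since 6 had no count alone and Pax8 had 1, which set their direction. The 11 markers had a sum of 0 to 0.0600 CPM alone and 284 to 328 CPM in coculture; Epcam and Lhx1 were at 0 in all 6 libraries. Of 11 mesenchymal and smooth muscle markers 4 could be tested and 3 were higher; these 3, Timp3, Col5a1 and Cav1, had 0, 1 and 1 counts alone, which again set their direction. The list had sums of 1.90 to 2.13 CPM and 59.3 to 64.1 CPM, and Col3a1 and Thy1 were at 0 throughout. Acta2 did not pass (0.989 CPM alone and 1.41 CPM in coculture by the group means), and Tagln, Myh11 and Pdgfrb had too few counts to test. Of 6 adipocyte markers Adipoq, Lep and Cfd were at 0 in all libraries, and the list summed to 7.97 to 9.97 CPM alone and 5.52 to 7.02 CPM in coculture. Nearly all of this sum was Fabp4, at 8.90 and 6.13 CPM by the group means. Fabp4 was the only adipocyte marker tested and was called lower (log2 -0.54). These markers moved with the comparison on which every value below rests, and their part in the changes of the synthesis genes was not tested.

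More of the lipid synthesis genes fell than rose in the cocultured libraries, and the largest number did not pass the test. Of the 36 genes 35 had enough counts to test, and 14 were lower, 3 were higher and 18 did not pass (edgeR quasi-likelihood test, Benjamini-Hochberg adjusted p under 0.05 over all genes tested). Across all 12972 genes tested 15.2% were called lower and 21.7% higher, 36.9% in all. Among genes with a mean of at least 10 CPM in lone cells, which leaves out only Fdps and Tm7sf2 of those tested, 21.1% were lower and 16.5% higher. This balance turned when the same genes were scaled and fitted on their own, with 1657 higher and 1430 lower. No change reached 2-fold (0 of 17 calls). The largest falls were those of Fads2, Mvd and Fads1, and the largest rise was that of Scd1. The 35 genes had a median log2 change of -0.09, against 0.00288 for all genes tested and -0.03 for genes with at least 10 CPM alone. The cocultured libraries lay wholly on one side of the lone libraries in 21 of the 35 genes, beside 47.1% of all genes tested (21% lower and 26.1% higher). All 17 called genes were among the 21, but the same libraries had set those calls. In bulk RNA, fewer cells making a transcript and less transcript per cell cannot be told apart.

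**Figure D1:**
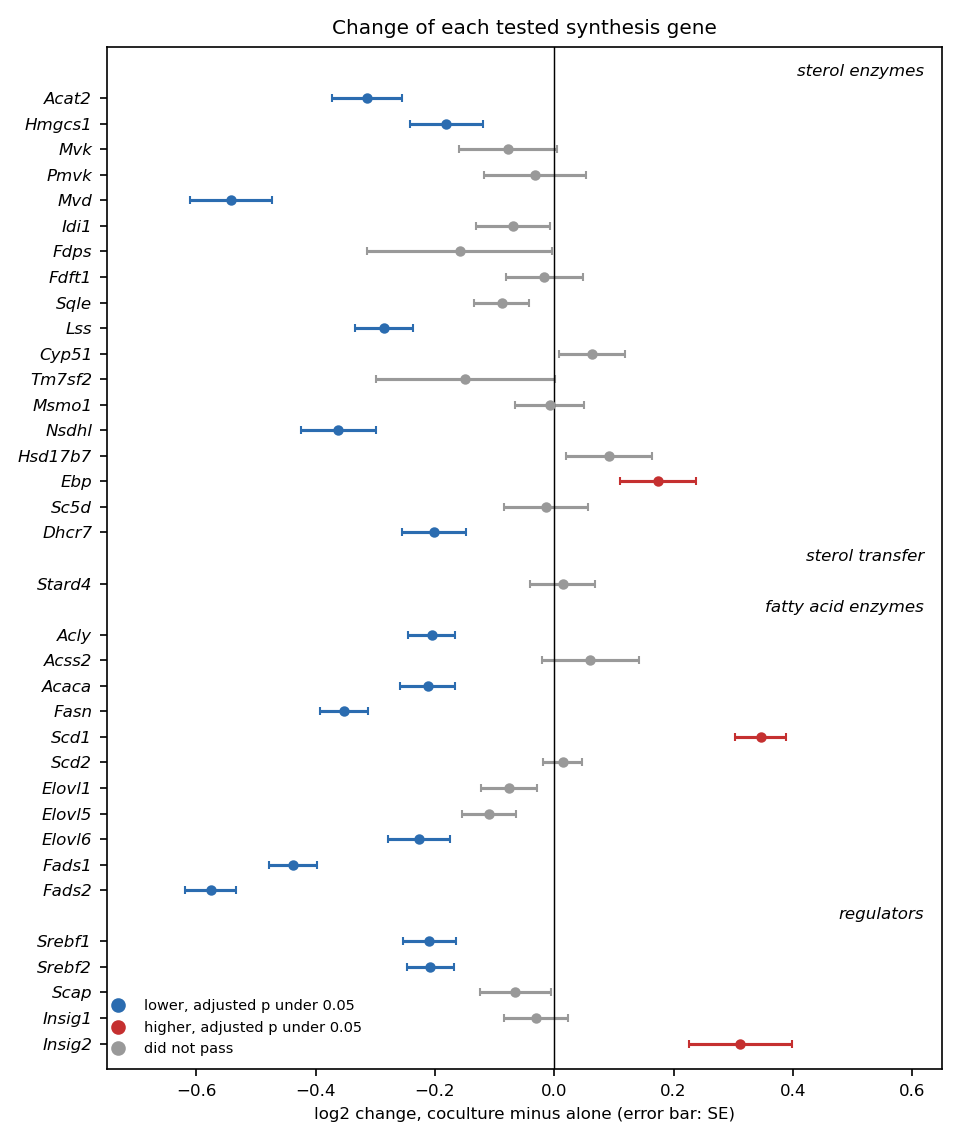
Log2 change (coculture minus alone, with SE, 3 libraries per group) of the 35 tested genes, in pathway order within each class. Points for 14 genes passed the test on the lower side, from -0.58 for Fads2 to -0.18 for Hmgcs1, and 3 on the higher side, Ebp, Scd1 and Insig2.

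The stretches before the transcription start of several genes that changed are shown because SREBP acts at such promoters together with the CCAAT-binding factor NF-Y. RefSeq promoter windows (GRCm38.p6, 250 bases before to 50 after a start) were found for 29 of the 36 genes, and Fdps, Fdft1, Sqle, Scd1, Scd2, Fads1 and Stard4 had none in the table used. Both strands were searched for TCACNCCAC (a sterol regulatory element core), CCAAT and CACGTG (an E-box), with N for any base, and no match of a motif overlapped one of another motif in the stretches shown. Of these 29 genes 7 had more than 1 window, and a gene was counted when any of its windows held a motif. Insig2 had 3 windows, of which the outermost is shown, and its matches lay only in that window. Which start these cells use was not tested. The last 150 bases before the start follow, 5′ to 3′ on the gene's strand, with matches on either strand in capitals (CCAAT on the opposite strand reads ATTGG).

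Hmgcs1, chr13:119690201-119690350, plus strand: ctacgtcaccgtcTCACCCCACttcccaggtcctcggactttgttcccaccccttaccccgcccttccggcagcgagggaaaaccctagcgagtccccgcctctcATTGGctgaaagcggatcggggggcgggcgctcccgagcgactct
Mvd, chr8:122443423-122443572, minus strand: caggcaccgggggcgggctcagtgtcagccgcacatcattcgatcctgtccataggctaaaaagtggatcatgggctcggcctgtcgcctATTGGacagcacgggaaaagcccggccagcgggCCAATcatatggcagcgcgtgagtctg
Nsdhl, chrX:72918371-72918520, plus strand: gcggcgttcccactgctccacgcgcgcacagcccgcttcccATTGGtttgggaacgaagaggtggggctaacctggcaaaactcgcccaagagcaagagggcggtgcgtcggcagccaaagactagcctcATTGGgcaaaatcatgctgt
Fasn, chr11:120824548-120824697, minus strand: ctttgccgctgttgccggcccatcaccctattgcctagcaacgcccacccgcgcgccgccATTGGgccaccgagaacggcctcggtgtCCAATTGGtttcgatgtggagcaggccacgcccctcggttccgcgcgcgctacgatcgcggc
Fads2, chr19:10101504-10101653, minus strand: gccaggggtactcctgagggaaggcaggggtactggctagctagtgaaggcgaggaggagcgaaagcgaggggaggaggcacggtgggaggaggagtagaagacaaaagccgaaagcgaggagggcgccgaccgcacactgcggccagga
Insig2, chr1:121332590-121332739, minus strand: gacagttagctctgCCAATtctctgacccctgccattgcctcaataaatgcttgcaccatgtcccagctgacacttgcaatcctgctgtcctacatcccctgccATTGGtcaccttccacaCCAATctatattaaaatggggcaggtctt

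CCAAT was in a window of 24 of the 29 genes, against 41.1% of all 27025 genes with a window. It was in 9 of 13 genes that were lower, in both of the 2 that were higher (Ebp and Insig2) and in 12 of 13 that did not pass. TCACNCCAC was in the windows of Hmgcs1 and Mlxipl, 2 of 29 genes against 1.44% of all genes, and CACGTG was in 7 of 29 against 8.09%. In Fasn a CCAAT on each strand shares bases in CCAATTGG. The Fads2 window held none of the 3 motifs, which says only that these letters are not in these 300 bases. A match is a description of sequence and not a binding site shown here.

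Of 18 sterol enzymes, all tested, 6 were lower, 1 was higher and 11 did not pass. The shares called lower and higher were 15.2% and 21.7% of all genes, and 21.1% and 16.5% of those with at least 10 CPM alone. The log2 change was below 0 in 15 of the 18 enzymes, beside 6413 of all 12972 genes tested. Their median was -0.08, against 0.00288 for all genes tested and -0.03 for those with at least 10 CPM alone. No test compared one step of the route with another. The 6 were Acat2, Hmgcs1, Mvd, Lss, Nsdhl and Dhcr7, and the enzyme that rose was Ebp. Summed over the 18 enzymes, the level was 1201, 1231 and 1182 CPM alone and 1115, 1123 and 1090 CPM in coculture, 7.93% lower by the means. The sums of the 2 groups did not overlap.

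Mvd, which decarboxylates mevalonate diphosphate to isopentenyl diphosphate (chromosome 8, 122433601 to 122443422), had the largest fall among sterol enzymes. It was at 68.2, 67.9 and 60.6 CPM in the lone libraries and at 41.4, 44.9 and 48.5 CPM in the cocultured ones. The groups were well apart, with the lowest lone library 12 CPM above the highest cocultured library. The change was 1.46-fold lower (log2 -0.54, SE 0.0692, adjusted p = 5.41e-07, edgeR).

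Acat2, the cytosolic thiolase that joins acetyl-CoA units at the entry of the route, was at 88.3, 78.6 and 79.7 CPM alone and at 66.5, 68.5 and 63.3 CPM in coculture. It fell 1.24-fold (log2 -0.31, SE 0.0590, edgeR adjusted p = 0.000125). Its transcript aligned to that of its paralog Acat3 at 97.7% identity over 1477 bases (55 counts over 6 libraries) and to that of Tcp1 at 98.7% over 445 bases (47178 counts). With 3978 counts alone and 3100 in coculture for Acat2, some of its reads are uncertain. Hmgcs1, which makes HMG-CoA in the next step, fell from 79.5 ± 6.12 to 70.1 ± 3.45 CPM (SD, n = 3; 1.13-fold, edgeR adjusted p = 0.0221). That call was lost without alone replicate B (adjusted p = 0.177), without coculture replicate A (0.0703) and without coculture replicate B (0.0863), and in the 3 limma fits on FPKM (0.0749 to 0.0847). Mvk and Pmvk, the kinases between HMG-CoA reduction and Mvd, were at 27.8 ± 1.12 and 27.1 ± 1.96 CPM alone and at 26.3 ± 0.963 and 26.5 ± 1.06 CPM in coculture, and neither passed.

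Downstream of Mvd, Idi1, which isomerizes isopentenyl diphosphate, was at 58.1 ± 3.23 and 55.4 ± 0.175 CPM (adjusted p = 0.415), and its processed pseudogene Gm13502, identical over 684 bases, held 78 counts. Fdps, the farnesyl diphosphate synthase, held only 677 counts over 6 libraries and did not pass (log2 -0.16, SE 0.154). Its transcript aligned to 6 processed pseudogenes at 88.8% to 98.9% identity, and the pseudogene Gm3571 held 2128 counts, more than Fdps itself. The level of Fdps in the table is therefore uncertain. Gm3571 went from 24.5 ± 1.11 to 20.1 ± 3.78 CPM (log2 -0.29, SE 0.109, edgeR adjusted p = 0.0400), with overlap between the groups.

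Next come the enzymes that make and close squalene. Fdft1, squalene synthase, was at 56.9 ± 2.17 and 56.2 ± 3.46 CPM and did not pass. Sqle, squalene epoxidase and the most abundant sterol enzyme by CPM, was at 160.0, 163 and 152 CPM alone and at 150.1, 149.8 and 147 CPM in coculture. Its groups did not overlap, but the change was small and did not pass (log2 -0.09, 95% interval -0.18 to 0.0067). Lss, which closes oxidosqualene to lanosterol, was at 130 (replicate A), 120 and 124 CPM alone and at 105, 101 and 100.9 CPM in coculture. It fell 1.22-fold (log2 -0.29, SE 0.0492, edgeR adjusted p = 4.23e-05). Reads of Fdft1 are uncertain because the gene overlaps Ctsb on the opposite strand, which held 272267 counts, and no source used here says whether strand was used in counting.

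From lanosterol to cholesterol, Nsdhl and Dhcr7 fell and Ebp rose. Nsdhl, a dehydrogenase of C4 demethylation on the X chromosome, was at 56.3, 56.3 and 58.1 CPM alone and at 45.5, 44.0 and 43.6 CPM in coculture. The SD was 1.06 CPM alone and 0.997 CPM in coculture, the groups did not overlap, and the change was 1.29-fold lower (log2 -0.36, SE 0.0624, edgeR adjusted p = 4.2e-05). Dhcr7, the last reductase before cholesterol, fell from 87.0 ± 2.61 to 75.7 ± 3.499 CPM (1.15-fold, adjusted p = 0.00458). Ebp, the sterol isomerase, rose from 44.4 ± 1.51 to 50.02 ± 0.410 CPM (1.13-fold, edgeR adjusted p = 0.0352). The Ebp call was lost without alone replicate C (adjusted p = 0.124), without each cocultured replicate (0.0753, 0.0856 and 0.0812 for A, B and C), without a filter (0.0825) and in the DESeq2 Wald test (0.0561).

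The remaining enzymes of this stretch did not pass. Cyp51, the lanosterol demethylase, was at 122, 126 and 112 CPM alone and at 132, 129 and 116 CPM in coculture, with overlap and a 95% interval of the log2 change of -0.05 to 0.18. Msmo1, the C4 methyl oxidase that acts beside Nsdhl, was at 113 ± 10.5 and 113 ± 3.36 CPM (interval -0.13 to 0.11). Hsd17b7, the ketoreductase of the same step, was at 43.8 ± 4.31 and 46.7 ± 0.994 CPM, Sc5d, the desaturase before Dhcr7, at 43.9 ± 2.28 and 43.6 ± 2.76 CPM, and Tm7sf2, a C14 reductase, at 7.94 ± 0.972 and 7.18 ± 0.371 CPM. Stard4, which carries sterol between membranes, had means of 70.3 ± 1.63 and 71.0 ± 1.51 CPM (interval -0.10 to 0.13). Cyp51 overlaps Akap9 and Tm7sf2 overlaps Vps51, so their reads are uncertain.

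**Figure D2:**
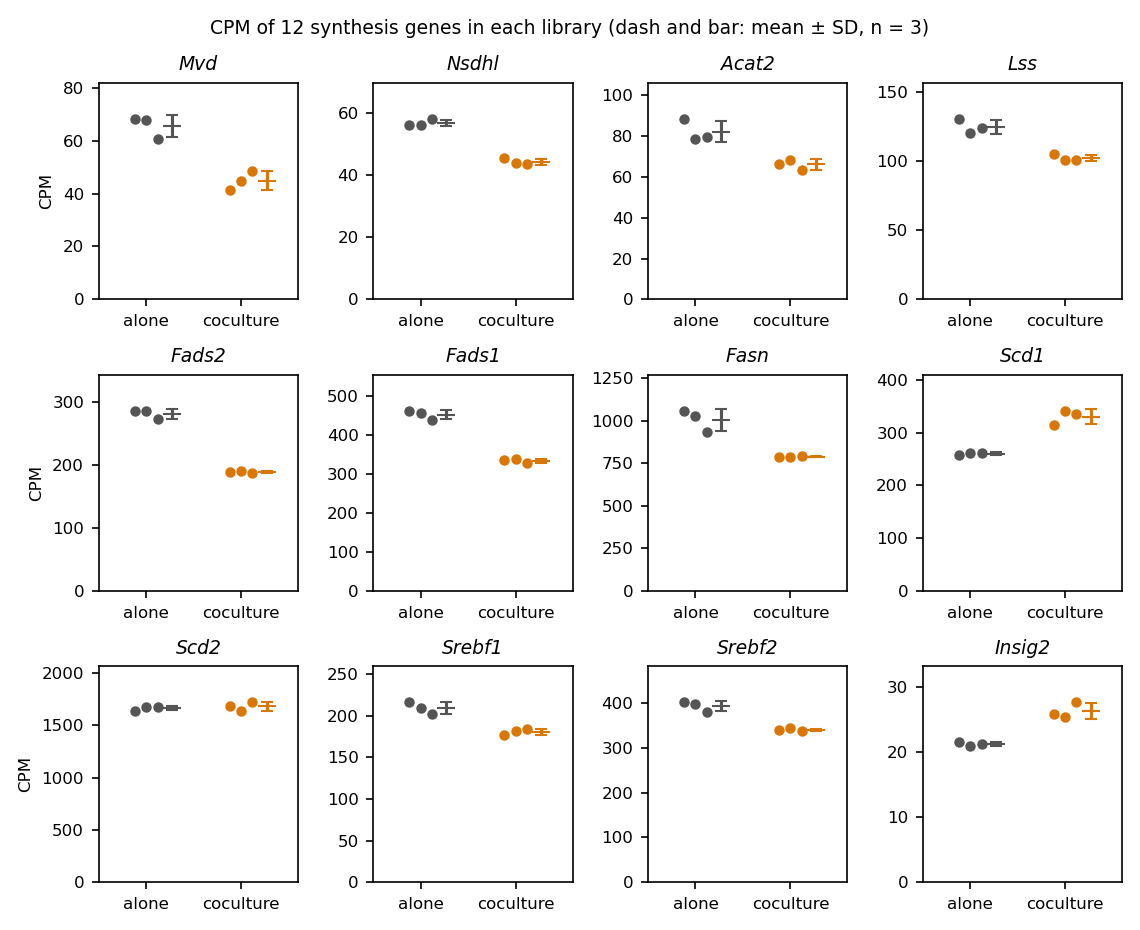
CPM of 12 genes in each library, alone and in coculture, on axes that start at 0; dashes and bars are mean ± SD of 3 libraries. Groups are apart for 11 genes, with Scd1 and Insig2 higher in coculture, and overlap for Scd2. These 11 were drawn from genes that had passed the test on the same libraries. Groups were apart in 47.1% of all genes tested.

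More of the 11 fatty acid enzymes fell than rose. All were tested, and 6 were lower, 1 was higher and 4 did not pass, with a median log2 change of -0.21. Beside this, 15.2% of all genes were called lower and 21.7% higher, and 21.1% and 16.5% of those with at least 10 CPM alone. The summed level was 4810, 4831 and 4688 CPM alone and 4302, 4276 and 4361 CPM in coculture, 9.70% lower by the means, and the sums did not overlap. The falls ran from acetyl-CoA supply (Acly) through chain synthesis (Acaca, Fasn) and elongation (Elovl6) to polyunsaturated desaturation (Fads1, Fads2), while the Δ9 desaturase gene Scd1 rose. Not every enzyme of these steps fell. Acss2 (log2 0.06), Elovl1 (-0.08), Elovl5 (-0.11) and Scd2 (0.01) did not pass.

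Fads2, the Δ6 desaturase that opens the route to long polyunsaturated fatty acids, had the largest fall of all the genes. It was at 286, 284 and 272 CPM alone and at 188, 190.2 and 187 CPM in coculture. The cocultured libraries lay within 3.6 CPM of each other and far below every lone library. It fell 1.49-fold (log2 -0.58, SE 0.0426, edgeR adjusted p = 3.22e-11). Fads1, the Δ5 desaturase of the same route, was at 464, 458 and 439 CPM alone and at 336, 339 and 329.6 CPM in coculture, 1.35-fold lower (log2 -0.44, SE 0.0396, edgeR adjusted p = 1.44e-09). The FPKM (fragments scaled by gene length and library total) of Fads1 over Fads2 was 0.708, 0.702 and 0.705 alone and 0.779, 0.778 and 0.771 in coculture, a ratio that was higher in every cocultured library.

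Fads1 and Fads2 lie in a cluster on chromosome 19, Fads2 at 10064164 to 10101503 on the minus strand and Fads1 at 10182888 to 10196870 on the plus strand. Their neighbour Fads3, a desaturase of related sequence at 10041548 to 10059671, went the other way. It was at 2.54, 2.28 and 1.73 CPM alone and at 52.2, 59.0 and 49.5 CPM in coculture, 24.7-fold higher (log2 4.62, SE 0.126, edgeR adjusted p = 8.04e-20). Renal markers rose from at most 0.0600 to at least 284 CPM in the same libraries, and their part in the Fads3 counts was not tested.

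Fasn, the fatty acid synthase, was at 1059, 1025 and 933 CPM alone and at 785, 786 and 792 CPM in coculture. All cocultured libraries were close together below the lowest lone library, and the fall was 1.28-fold (log2 -0.35, SE 0.0406, edgeR adjusted p = 1.03e-07). Acly, which splits citrate to supply cytosolic acetyl-CoA, fell from 466.7 ± 10.7 to 405 ± 10.7 CPM (1.15-fold, adjusted p = 0.000153). Acaca, the carboxylase that makes malonyl-CoA, fell from 203 ± 2.57 to 174.9 ± 7.55 CPM (1.16-fold, adjusted p = 0.000522). Its processed pseudogene Gm5182, 99.2% identical over 6118 bases, held 2479 counts against 18052 for Acaca and did not pass (26.4 ± 2.79 and 25.8 ± 2.48 CPM). Elovl6, which lengthens palmitate to stearate, fell from 89.1 ± 2.10 to 76.1 ± 0.969 CPM (1.17-fold, adjusted p = 0.000996).

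Scd1, a stearoyl-CoA desaturase that makes oleate and palmitoleate, was at 258, 262 and 261 CPM alone and at 315, 342 and 335 CPM in coculture. Every cocultured library was above every lone library, and the rise was 1.27-fold (log2 0.35, SE 0.0426, edgeR adjusted p = 2.95e-07). Scd2, its paralog and the most abundant of the genes, was at 1641, 1678 and 1676 CPM alone and at 1686, 1636 and 1722 CPM in coculture. The groups overlapped, and the 95% interval of the Scd2 log2 change was -0.05 to 0.08. The FPKM of Scd2 over Scd1 went from 5.68 ± 0.0241 alone to 4.52 ± 0.256 in coculture. The 2 transcripts aligned at 87.6% identity over 1196 bases, and the intervals of their changes did not overlap (Scd1 0.26 to 0.43). Whether the macrophages or the cells that carry the renal markers gave the added Scd1 counts was not tested.

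The other fatty acid enzymes did not pass. Elovl5, which lengthens polyunsaturated chains, was at 171, 170.7 and 164 CPM alone and at 155, 158 and 156 CPM in coculture. It was just short of the threshold (log2 -0.11, SE 0.0446, edgeR adjusted p = 0.0574), and passed in 6 of 19 alternatives, among them limma-voom (0.0494) and the fit without alone replicate C (0.0452), with a range of 0.0372 to 0.145. Elovl1, an elongase of very long saturated chains, was at 154 ± 1.36 and 146 ± 5.60 CPM, and overlaps Cdc20. Acss2, which makes acetyl-CoA from acetate, was at 30.7 ± 1.42 and 32.0 ± 2.60 CPM, and overlaps Gss.

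Among regulators both SREBP genes fell slightly and Insig2 rose. Srebf2 was at 401, 396 and 380.1 CPM alone and at 339, 343 and 337 CPM in coculture, 1.15-fold lower (log2 -0.21, SE 0.0398, edgeR adjusted p = 0.000152). Srebf1 was at 216, 209 and 201 CPM alone and at 176, 182 and 183 CPM in coculture, 1.16-fold lower (log2 -0.21, SE 0.0448, edgeR adjusted p = 0.000535). The table does not separate the isoforms SREBP1a and SREBP1c, and Srebf1 overlaps Rai1 (5344 counts). Their FPKM ratio, Srebf2 over Srebf1, was 1.47 ± 0.0158 alone and 1.48 ± 0.0338 in coculture.

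The INSIG genes, whose proteins retain SCAP in the endoplasmic reticulum, did not move together. Insig2, known to be less dependent on SREBP than Insig1, was at 21.7, 20.9 and 21.3 CPM alone and at 26.0, 25.5 and 27.7 CPM in coculture. It rose 1.24-fold with no overlap (log2 0.31, SE 0.0865, edgeR adjusted p = 0.00572). Insig1, an SREBP target, was at 98.3, 99.9 and 89.5 CPM alone and at 90.1, 96.9 and 94.3 CPM in coculture, with overlap and a 95% interval of the log2 change of -0.14 to 0.08. The 2 intervals did not overlap (Insig2 0.13 to 0.49), and Insig1 remained the higher gene per length, with an FPKM ratio of 5.06 ± 0.319 alone and 3.99 ± 0.243 in coculture. Scap, the escort protein gene, was at 85.1 ± 7.28 and 81.3 ± 2.30 CPM and did not pass. Mlxipl, which encodes the glucose-responsive factor ChREBP, was barely counted, with 1 count over the lone libraries and 2 over the cocultured ones, and was not tested.

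Per length of gene, the 5 highest levels were those of fatty acid enzymes. The length used was the listed gene length, which can exceed that of a transcript. It was 4208 bases for Fdps and 17074 for Acaca, against 1382 and 9513 bases in the transcripts aligned above. The order of genes therefore depends on the listed lengths. In lone cells Scd2 led at 305 ± 3.62 FPKM, followed by Fads2 at 186 ± 5.01, Fads1 at 131 ± 3.67, Fasn at 91.6 ± 5.93 and Acly at 88.2 ± 1.93 FPKM. Fasn and Acly overlapped over their libraries, and the other neighbours in this order did not. The highest sterol enzymes were Mvd at 35.2 ± 2.28 and Acat2 at 32.2 ± 2.11 FPKM, which overlapped, and the lowest of the 35 tested genes were Acss2 (3.01 ± 0.142), Fdps (1.76 ± 0.179, uncertain as above) and Tm7sf2 (1.42 ± 0.174). In coculture the leading 3 genes kept their order. Scd1 went from rank 8 (53.7 ± 0.429 FPKM) to rank 6 (68.3 ± 2.99 FPKM), while Mvd went from rank 11 to rank 15 (24.1 ± 1.91 FPKM).

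**Figure D3:**
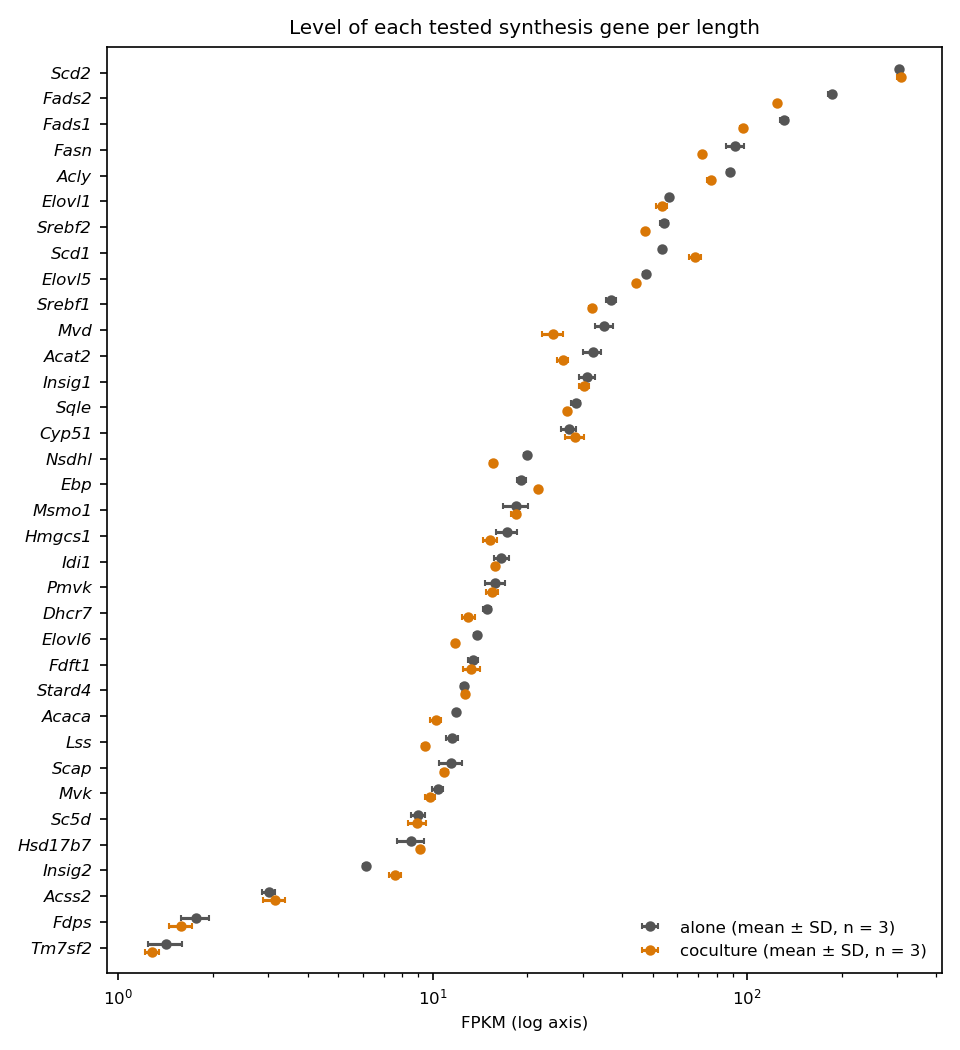
FPKM of the 35 tested genes on a log axis, alone and in coculture (mean ± SD, 3 libraries each), ordered by the lone cells. The order depends on the listed gene lengths. Levels span from 305 FPKM for Scd2 to 1.42 FPKM for Tm7sf2 in lone cells, and shifts between groups are small beside this range.

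Other genes of the pathways moved in both directions. Of 13 other sterol and isoprenoid enzymes 12 were measured, and 4 were lower and 0 higher (edgeR, median log2 -0.10). Among all genes 15.2% were lower and 21.7% higher. In this list 1 was higher at an unadjusted p under 0.05, as in the DESeq2 and limma-voom fits. Soat2, a cholesterol esterifying enzyme, fell from 8.37 ± 1.06 to 6.26 ± 0.678 CPM (1.34-fold, adjusted p = 0.0381), and Cyp27a1, the sterol 27-hydroxylase, from 22.9 ± 0.515 to 18.3 ± 2.14 CPM (1.25-fold, adjusted p = 0.0135). Of 12 partners of SREBP processing 3 (25%) were higher, close to the 21.7% of all genes, and 0 lower (edgeR; median 0.02), with 0 lower at an unadjusted p under 0.05 and in the DESeq2 and limma-voom fits. Trim21, a ubiquitin ligase and antibody receptor, rose from 12.3 ± 0.543 to 17.6 ± 1.88 CPM (1.43-fold, edgeR adjusted p = 0.000732). A part of Trim21 in SREBP processing was not tested here. Pgrmc1, a haem-binding membrane protein gene, rose from 49.6 ± 2.18 to 58.9 ± 4.65 CPM (1.19-fold, edgeR adjusted p = 0.0053).

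Of 17 genes of cholesterol uptake and trafficking 5 were higher and 1 lower, with a median log2 change of 0.02. Of the 15 with counts alone 3 (20%) were higher, close to the 21.7% of all genes. Vldlr, the very low density lipoprotein receptor gene, was listed at 0 in every lone library. The cocultured libraries held 19.0, 20.9 and 22.9 CPM of it, at least 339-fold higher when 3 counts are taken as the limit for the lone libraries together. As for 2 of the 17 genes, only counts in coculture let it be tested, which set its direction. Lrp8, a receptor of the same family, rose from 77.5 ± 5.23 to 99.8 ± 3.48 CPM (1.29-fold, edgeR adjusted p = 8.25e-06). Npc2 and Lipa, which release cholesterol from lysosomes, rose 1.23-fold to 358 ± 7.32 CPM and 1.11-fold to 661 ± 32.7 CPM. Stard5, a sterol-binding protein gene, was the member that fell, 1.31-fold to 13.9 ± 0.826 CPM.

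Of 26 other genes of fatty acid synthesis and activation 23 were measured, and 8 were higher and 5 lower (median 0.08). Among the 8, Elovl7 had 0 counts alone and 42, 87 and 55 in coculture, so it could be tested only through coculture. Of the other 22 genes 7 (31.8%) were higher and 5 (22.7%) lower, beside 21.7% and 15.2% of all genes. Besides Fads3, Acacb, the carboxylase linked to control of fatty acid oxidation, rose from 2.05 ± 0.134 to 6.83 ± 0.517 CPM (3.33-fold, edgeR adjusted p = 1.03e-07), and Hacd4, a dehydratase of chain elongation, from 11.6 ± 0.355 to 21.2 ± 1.64 CPM (1.83-fold, adjusted p = 2.85e-07). Me1, a source of NADPH, rose 1.30-fold to 46.4 ± 3.54 CPM, and the acyl-CoA synthetase genes Acsl4 and Acsl5 rose 1.11-fold and 1.15-fold, whereas Acsl3 fell 1.13-fold. Slc25a1, the citrate carrier that feeds Acly, fell from 92.5 ± 2.20 to 82.1 ± 1.34 CPM (1.13-fold, adjusted p = 0.0085), and Mid1ip1, an activator of Acaca, from 67.0 ± 2.36 to 59.8 ± 1.37 CPM (1.12-fold, adjusted p = 0.0268). Me1, the Acsl genes, Slc25a1, Mid1ip1, Npc2, Lipa and Stard5 were named after their values were seen.

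**Figure D4:**
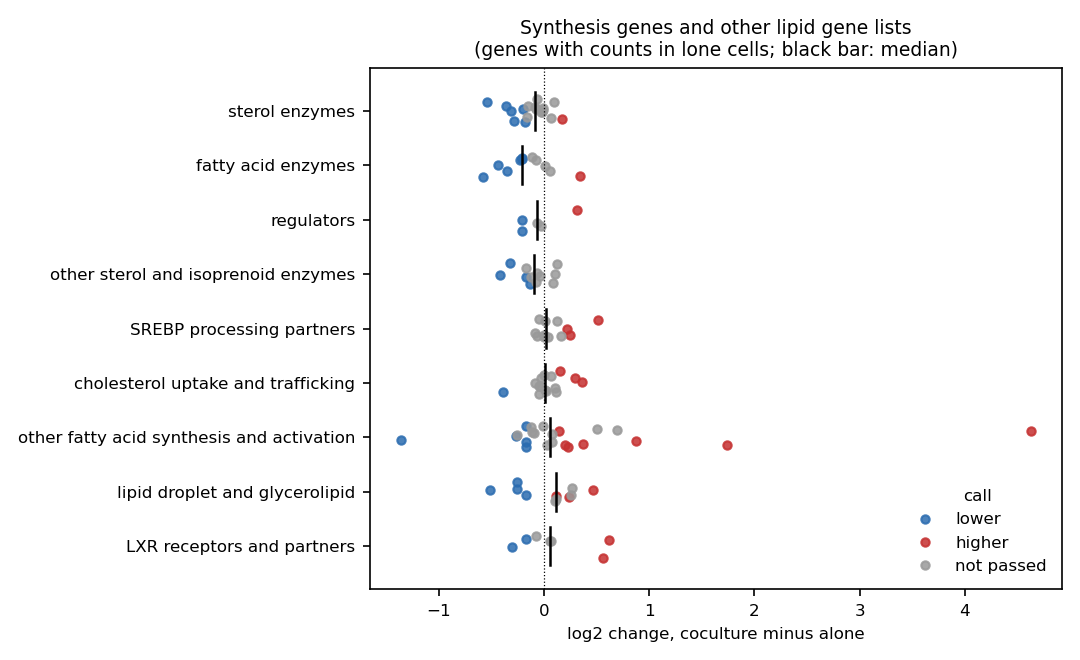
Log2 change of each measured gene with counts in lone cells, for the synthesis genes and the other lipid lists (cell type marker lists are not drawn), with the median of the drawn genes as a black bar; vertical scatter within a row has no meaning. Sterol and fatty acid enzymes lie mostly left of 0 between -0.58 and 0.35, and the farthest point drawn on the right is Fads3 at 4.62.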

How the data were processed

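Counts per gene for 6 libraries were used as deposited by the authors, with gene names and coordinates, per the file headers. The authors also deposited FPKM, which equalled count over length and total within 1% in 100% of values above 0, up to a factor per library of 0.996 to 1.00. The submitters' processing notes list mm10, edgeR 3.22.5, DESeq2 1.20.0, featureCounts 1.5.0-p3 and HISAT2 2.0.5, without roles. All 6 libraries differed by more than sampling noise within groups (chi-square per degree of freedom 3.10 to 4.82).

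The main test was edgeR 4.0.16 (R 4.3.3) glmQLFTest with TMM scaling, filterByExpr and a group term. SE is the absolute log2 change over the square root of F, and CPM uses TMM-scaled totals. Intervals are 95% from the same fit. The procedure was tested on data simulated with a common dispersion. It recovered 34.3% of genes given a log2 change of 0.25, 80.6% at 0.5 and 95.5% at 1, with 5 false calls. Small changes were thus often missed in the simulation. Alternatives used DESeq2 1.42.0, limma 3.58.1, other scalings, filters, FPKM with a pseudocount of 1 or 0.1, the replicate block and each library left out; a limit of 10 CPM alone was added after seeing the data. Near copies were sought among GENCODE M21 transcripts with BLAST 2.17.0.

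Members and lists were chosen with earlier results of these data known. Values per library are given for called members with a log2 change of at least 0.3 in size and for the 2 of highest CPM per class; from each other list up to 3 called genes were taken by size of change, given 5 CPM in either group; a list without calls gave its 2 genes of highest CPM. Further members and genes were added after their values were seen. A few genes named by this rule are not reported here.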

Additional observations from a re-analysis of the deposited data

How the results depend on the processing

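All 17 called members kept their direction in each of 323 alternative values, and 310 of these also stayed past the threshold; the 13 that did not were those of Hmgcs1 (7) and Ebp (6). Of 18 members that did not pass, Elovl5 alone crossed it (6 alternatives), and 17 of 340 values changed sign, all near 0. The cause of these shifts was not tested. Fdft1 was at 0.011 among genes with at least 10 CPM alone, Msmo1 at 0.0085 and 0.019 and Sc5d at 0.0031 and 0.014 with at least 1 and 10 CPM alone. With each library left out in turn, Pmvk ran from -0.083 to 0.022, Fdft1 from -0.052 to 0.040, Msmo1 from -0.070 to 0.059, Sc5d from -0.060 to 0.042, Acss2 from -0.012 to 0.10 and Stard4 from -0.0076 to 0.030. Calls over all genes numbered 3087 with at least 10 CPM alone and 3159 with a mean FPKM of at least 1, where fewer genes were tested. Among genes with at least 10 CPM alone, higher genes made up 43.8% of calls, and 53.7% when these genes were scaled and fitted on their own; counts of members called were then 6, 7 and 3 for sterol enzymes, fatty acid enzymes and regulators. Depth limits Fdps and Tm7sf2 most, with 677 and 725 counts over 6 libraries.

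With the replicate block, 4766 genes, 7 sterol enzymes, 7 fatty acid enzymes and 3 regulators were called, against 4793, 7, 7 and 3 without it, and no member changed its call. Libraries with the same letter had correlations of deviations from the group means of 0.0014, 0.02 and 0.03 across genes, and not every library correlated best with its own letter, so the letters were not taken as pairs.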

Other observations

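Genes that store or release fatty acids moved in both directions. Of 14 genes of lipid droplets and glycerolipids 11 were measured, and 3 were higher and 4 lower (edgeR quasi-likelihood test, Benjamini-Hochberg adjusted p under 0.05 over all genes). Plin3, a droplet coat protein gene, rose from 30.5 ± 0.252 to 42.1 ± 3.61 CPM (SD, n = 3; 1.38-fold, edgeR adjusted p = 1.84e-05). The phosphatidate phosphatase genes Lpin1 and Lpin2 fell from 24.5 ± 0.633 to 17.1 ± 1.93 CPM (1.43-fold, adjusted p = 0.000152) and from 65.0 ± 1.78 to 54.5 ± 1.99 CPM (1.19-fold, adjusted p = 0.00146).

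Of 7 genes of the oxysterol receptors LXR and their partners 2 were higher and 2 lower. Nr1h3, which encodes LXR alpha, rose from 6.43 ± 1.05 to 9.57 ± 0.971 CPM (1.48-fold, edgeR adjusted p = 0.00519) and the partner receptor gene Rxra from 15.9 ± 1.499 to 24.4 ± 3.217 CPM (1.53-fold, adjusted p = 5.37e-05). Rxrb fell from 88.7 ± 6.99 to 72.0 ± 1.21 CPM (1.23-fold, adjusted p = 0.000195). These lists were counted beside 21.7% of all genes called higher and 15.2% called lower.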
